A study of Mus musculus with 17 samples.

Results

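The 100 genes described here carry symbols of the subunits of mammalian oxidative phosphorylation: complexes I to IV of the respiratory chain and ATP synthase, complex V. They were taken by gene symbol from the 56748 genes of the counts table, keeping protein-coding genes and leaving out assembly factors and pseudogenes. Since the choice went by symbol, a gene kept need not be a structural subunit. Of the 100 genes, 13 lie on mitochondrial DNA and 87 in the nucleus. The 13 comprise 7 genes of complex I, 1 of complex III, 3 of complex IV and 2 of complex V. The 87 comprise 36 genes of complex I, 4 of complex II, 9 of complex III, 20 of complex IV and 18 of complex V, with Ndufa4 and Ndufa4l2 placed in complex IV. The filter on low counts left 92 for testing (12 mitochondrial and 80 nuclear), and the other 8 were mt-Atp8, Cox4i2, Cox6b2, Cox7b2, Cox8b, Cox8c, Ndufa4l2 and a second gene identifier of Atp5o that had no count.

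RNA came from E11 cells, an established mouse podocyte line, grown on silicone (PDMS) with 1 of 3 surfaces. HF (6 libraries) carried a high fractal topography traced from healthy glomerular histology, RT (6 libraries) carried a round topography that is not fractal, and NT (5 libraries) had no topography. All groups share the line, the silicone and the library preparation, and the labels do not say what separates one replicate from another, so every p-value here measures the spread between these libraries only. Total counts ran from 14913649 to 24072966 a library. Levels are CPM, the counts of a gene as a share of the scaled library total, and a gene was called when its p-value, from edgeR's quasi-likelihood test and adjusted by Benjamini-Hochberg over 15196 tested genes, was under 0.05. These are bulk samples, in which fewer cells of a type and less RNA per cell cannot be told apart. Of 12 podocyte markers, Synpo (272 CPM), Podxl (133 CPM) and Wt1 (104 CPM) were present, while Ptpro (0.00341 CPM) was near 0 and Tcf21 had no count. Of 10 proximal tubule markers, Lrp2 (399 CPM) and Aqp1 (238 CPM) were abundant in every group. Cubn had 5.16 CPM and the others were under 1 CPM. Of 6 other tubule markers, Cdh16 (976 CPM) was abundant in every group, Slc12a1 had 3.36 CPM and the others were under 1 CPM. The summed podocyte markers spanned 1486 to 1555 CPM on HF, 1510 to 1564 CPM on RT and 1484 to 1555 CPM on NT, and markers of endothelial and immune cells summed to at most 1.151 and 2.93 CPM in any library. Of 5 markers of mesangial cells, pericytes and smooth muscle none was at 0, and they summed to 805 to 881 CPM on HF, 775 to 854 CPM on RT and 677 to 772 CPM on NT. That difference lay in Acta2 (smooth muscle actin), called higher on HF and on RT than on NT, with means of 364, 363 and 261 CPM on HF, RT and NT. Pdgfrb, the other abundant marker, averaged 478, 457 and 478 CPM on the same surfaces, and the other 3 were under 1 CPM. Among podocyte markers, Wt1 and Pdpn were called lower on HF and on RT than on NT, and Actn4 was called higher on HF than on NT. Their part in the results below was not tested.

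Electrons from NADH enter the chain at complex I and those from succinate at complex II, pass through complex III to complex IV, which reduces oxygen, and the proton gradient built on the way drives ATP synthase. Complex II is wholly nuclear encoded, whereas the other complexes join a few very hydrophobic subunits made in the mitochondrion to many imported ones. Mitochondrial DNA is transcribed from both strands as long precursors that are cut into single messengers, and mt-Nd6 is the only protein gene read from the light strand. Podocytes are energy-demanding cells whose foot processes rest on an actin skeleton, and inherited respiratory chain defects can present as glomerular disease.

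Several mitochondrial members have near-identical copies in the nuclear genome, between which short reads cannot always be assigned. On chromosome 1 the mouse assembly holds a nearly unbroken copy of a stretch of mitochondrial DNA, annotated as the pseudogenes Gm29216, Gm28661, Gm10925, Gm28437, Gm28438, Gm10222 and Gm28439. Gm28437 was identical to mt-Co3 (cytochrome c oxidase subunit 3) over 783 bases, Gm28661 to mt-Co2 (subunit 2) over 681 bases and Gm10925 to mt-Atp6 (the membrane a subunit of ATP synthase) over 678 bases. Gm10222 was identical to mt-Nd4l (a small membrane subunit of complex I) over 294 bases and Gm28439 to part of mt-Nd4 (a proton-pumping subunit of complex I) over 876 bases. The copy of mt-Nd3, another membrane subunit of complex I, differed by 1 base in 345. The starts of the pair are shown because they carry that single difference, T3C, in capitals (positions from 1 at the first base of either gene, GENCODE transcripts):
mt-Nd3: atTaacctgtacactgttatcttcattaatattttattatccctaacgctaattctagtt
Gm28438: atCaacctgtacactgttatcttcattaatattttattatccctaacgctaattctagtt

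The 12 tested mitochondrial genes fell into a high and a low class by level per length, and the classes differed in shared sequence. In mt-Co1 (the catalytic subunit of complex IV), mt-Cytb (cytochrome b of complex III), mt-Nd1, mt-Nd2, mt-Nd4, mt-Nd5 and mt-Nd6 (membrane subunits of complex I), at most 60.8% of the 100-base windows also occurred in another annotated gene. These 7 stood between 1195 CPM per kb (mt-Nd6) and 5348 CPM per kb (mt-Co1), with mt-Cytb at 3431 CPM per kb. For mt-Co2, mt-Co3, mt-Atp6, mt-Nd3 and mt-Nd4l the share of such windows was 97.6% to 99.9%, and the levels were 86.2, 63.6, 74.4, 26.5 and 23.6 CPM per kb. The deposited notes do not state how reads that match more than 1 place were counted, and the part of this in the levels was not tested. mt-Atp8, a small ATP synthase subunit, was not tested and lies outside these classes. It had the lowest level, 1.16 CPM per kb (0.24 CPM), although 0% of its windows occurred in another annotated gene. It shares 21.1% of its bases with mt-Atp6. The windows were searched in annotated genes only, so copied sequence without annotation is not counted.

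**Figure D1:**
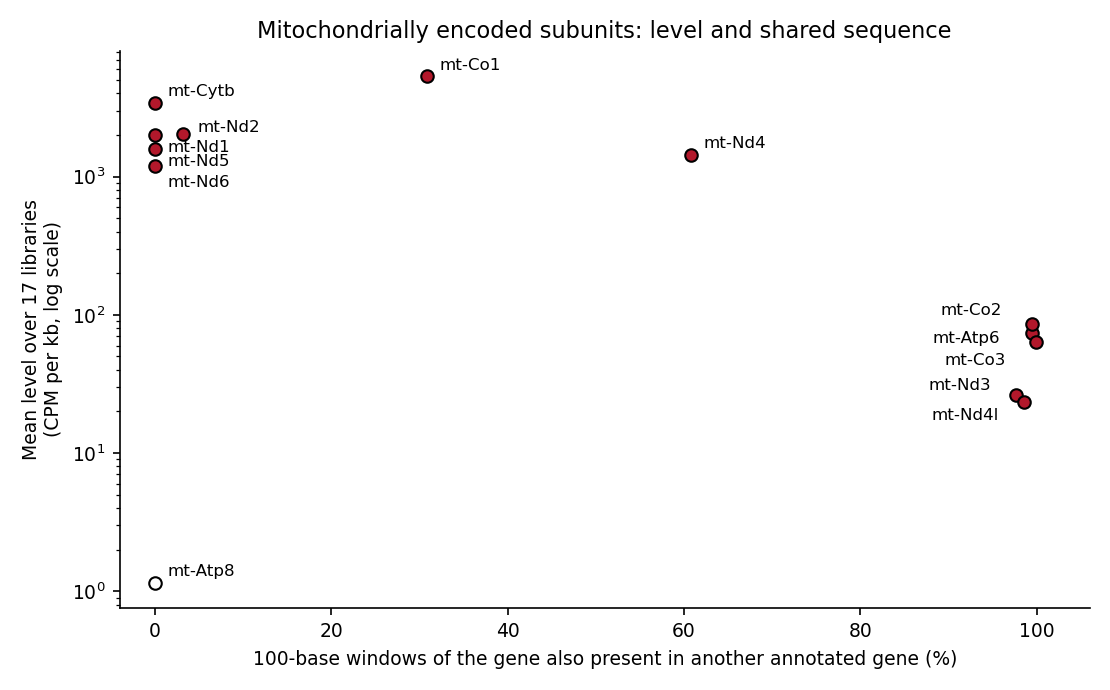
Mean level over 17 libraries (CPM per kb, log scale) of each of the 13 mitochondrially encoded genes against the percentage of its 100-base windows that also occur in another annotated gene. The 5 genes at 97.6% or more lie between 23.6 and 86.2 CPM per kb, and 7 with less shared sequence between 1195 and 5348 CPM per kb. The open point is mt-Atp8, which was not tested and lies lowest, at 0% and 1.16 CPM per kb.

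mt-Nd6, a membrane subunit of complex I, was lower on both structured surfaces than on the flat one. It had 584, 610, 560, 552, 615 and 602 CPM in HF libraries 1 to 6, 606, 599, 615, 557, 631 and 603 CPM in RT libraries 1 to 6, and 675, 661, 725, 674 and 676 CPM in NT libraries 1 to 5. Every HF library and every RT library lay below every NT library, while HF and RT overlapped. Of all tested genes 0.934% had every HF library below every NT library, and 1.22% had every RT library below every NT library. mt-Nd6 averaged 587 ± 26.5 CPM on HF and 682 ± 24.6 CPM on NT (SD, n = 6 and 5), so HF minus NT was -0.22 ± 0.036 on the log2 scale (SE, edgeR adjusted p = 0.00048). On RT it averaged 602 ± 24.8 CPM (SD, n = 6), and RT minus NT was -0.18 ± 0.036 on the same scale (SE, edgeR adjusted p = 0.0022). HF minus RT was -0.04 ± 0.035 (SE, adjusted p = 0.88). HF and RT were set against the same 5 NT libraries, so the pair of falls is not independent. Both calls were kept in each alternative fit, including each library left out in turn.

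The 3′ end of mt-Nd6 lies under the end of mt-Nd5, which is read from the other strand, and the libraries do not record strand. RNA read from that other strand anywhere across mt-Nd6, as in a long precursor, would therefore count as mt-Nd6. Its part in the counts was not tested. The annotated overlap is 14 bases of the 519 of mt-Nd6, shown in capitals, and reads across it cannot be told apart by gene:
mt-Nd5: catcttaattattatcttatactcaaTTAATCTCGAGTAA
mt-Nd6: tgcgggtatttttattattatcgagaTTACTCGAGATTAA
mt-Nd5 itself had 2701, 2847 and 3036 CPM as the lowest, median and highest HF library, 2734, 2872 and 2942 CPM on RT, and 3100, 3033, 3331, 3014 and 2297 CPM in NT libraries 1 to 5. Its groups overlapped, with NT 5 below every other library, and its log2 fold changes against NT were -0.05 on HF and -0.05 on RT (adjusted p = 0.78 for each). Counts of mt-Nd6 were 2.82 ± 0.101% of the summed other 6 high genes on HF, 2.91 ± 0.0650% on RT and 3.13 ± 0.220% on NT (SD, n = 6, 6 and 5), and the groups overlapped.

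mt-Nd3 was also lower on RT. It had 6.1, 6.8, 6.3, 5.7, 8.3 and 7.5 CPM in RT libraries 1 to 6, against 13.7, 10.97, 14.4, 9.9 and 11.2 CPM in NT libraries 1 to 5. Every RT library lay below every NT library, and the log2 fold change was -0.82 ± 0.14 (SE, edgeR adjusted p = 0.00082). On HF it had 6.5, 9.5 and 11.9 CPM as the lowest, median and highest library, which overlapped NT, and HF minus NT was -0.37 ± 0.14 (SE, adjusted p = 0.18). These counts are low, and the nearly identical Gm28438 held more of them, 24.7 to 28.7 CPM on HF, 18.7 to 27.2 CPM on RT and 18.9 to 44.1 CPM on NT. Gm28438 did not pass in RT minus NT (log2 fold change -0.21 ± 0.16, SE, adjusted p = 0.59).

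Further genes with shared sequence had low RT libraries without passing the threshold. mt-Atp6 had 39.5, 39.7, 58.0, 37.1, 39.99 and 70.4 CPM in HF libraries 1 to 6, 39.0, 41.5 and 47.1 CPM as the lowest, median and highest RT library, and 80.8, 60.3, 65.1, 43.9 and 73.9 CPM in NT libraries 1 to 5. mt-Co3 had 40.6, 44.2 and 81.9 CPM on HF, 32.6, 36.1 and 55.6 CPM on RT, and 64.3, 82.7, 63.1, 40.1 and 62.9 CPM in NT libraries 1 to 5. mt-Co2 had 49.7, 52.7 and 104 CPM on HF, 42.5, 43.9 and 51.3 CPM on RT, and 73.8, 71.2, 71.6, 40.9 and 76.0 CPM in NT libraries 1 to 5. In each of the 3 genes NT 4 was the lowest NT library. It lay among the RT libraries for mt-Atp6 and mt-Co3 and below all of them for mt-Co2. The log2 fold changes in RT minus NT were -0.62 for mt-Atp6, -0.67 for mt-Co3 and -0.56 for mt-Co2 (edgeR adjusted p = 0.074, 0.11 and 0.19), and in HF minus NT they were -0.45, -0.32 and -0.01 (adjusted p = 0.25, 0.56 and 0.99). DESeq2 called mt-Atp6 and mt-Co3 lower in RT minus NT (adjusted p = 0.021 and 0.032). For mt-Atp6 so did edgeR with only the RT and NT libraries (adjusted p = 0.047), a replicate term (0.026) or libraries 1 to 5 (0.043). Of 17 fits with 1 library left out, 2 called mt-Atp6, 1 called mt-Co3 and 0 called mt-Co2. The HF libraries were uneven, with HF 4 far above the others for mt-Co3, HF 6 and then HF 3 above the others for mt-Atp6, and HF 3 and HF 1 (88.3 CPM) above the others for mt-Co2.

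The chromosome 1 copies, which are not chain genes, were read beside them. All 7 copies had log2 fold changes below 0 in HF minus NT and in RT minus NT, with medians of -0.44 and -0.53, where 51.0% and 50.9% of all tested genes were below 0. In HF minus NT 3 of the 7 were called, each lower, and 4 did not pass (0.829% of all tested genes were called lower). In RT minus NT 6 were called, each lower (1.44% of all tested genes), while HF minus RT called 0 of 7 (median 0.11). Gm28437, the copy of mt-Co3, had 29.4, 32.3 and 35.7 CPM as the lowest, median and highest HF library, 27.4, 30.4 and 31.0 CPM on RT, and 42.4, 42.2, 48.2, 34.6 and 55.2 CPM in NT libraries 1 to 5. Its RT libraries lay below all NT libraries, its HF libraries overlapped NT only through NT 4, and its log2 fold changes were -0.46 ± 0.082 on HF (SE, adjusted p = 0.0029) and -0.58 ± 0.082 on RT (SE, adjusted p = 0.00017). Gm29216, which matches mt-Co1 over 492 bases with 6 differences, had every HF library (26.3 to 36.4 CPM) and every RT library (23.0 to 34.2 CPM) below every NT library (36.9 to 39.9 CPM), with log2 fold changes of -0.37 ± 0.097 (SE, adjusted p = 0.052) and -0.50 ± 0.097 (SE, adjusted p = 0.0046). Whether these counts come from the nucleus or from mitochondrial messengers cannot be told from the table.

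**Figure D2:**
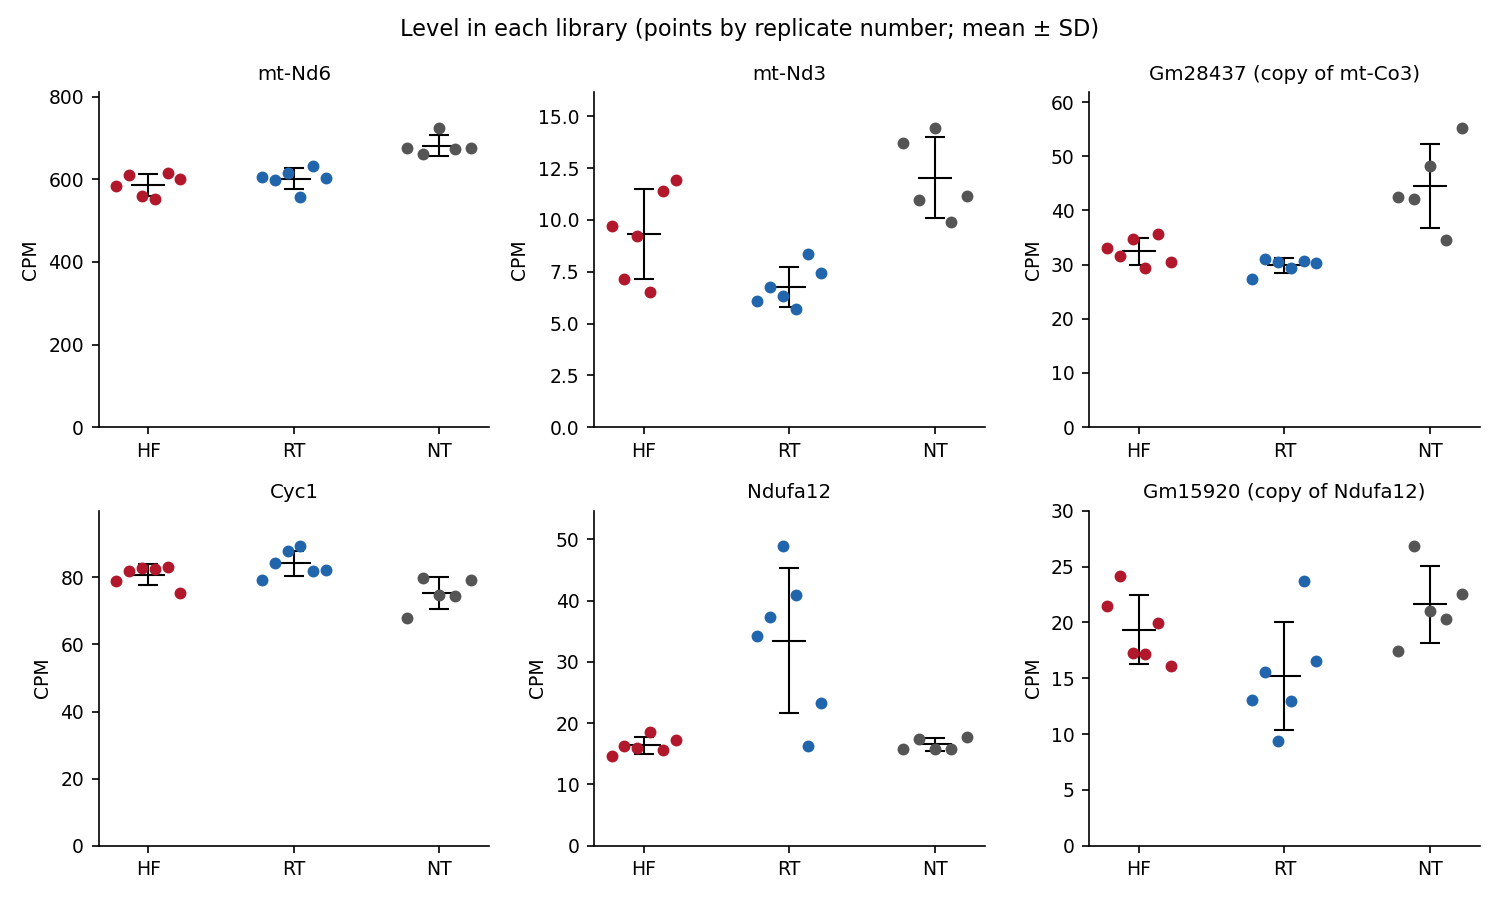
Level (CPM, axes from 0) of 4 members and of the copies of mt-Co3 and Ndufa12 in each library of HF (6), RT (6) and NT (5), with points in order of replicate number and bars for mean ± SD. All HF and RT points of mt-Nd6 lie below the lowest NT point of 661 CPM, the RT points of Ndufa12 spread from 16.3 to 48.9 CPM, and Gm15920 is lowest where Ndufa12 is highest, in RT 3.

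Among the remaining mitochondrial genes none passed the threshold in any comparison. Read together, all 12 tested had log2 fold changes below 0 in HF minus NT, where 51.0% of all tested genes did, with a median of -0.10 and 1 called (mt-Nd6, lower, against 0.829% of all tested genes called lower). In RT minus NT 11 of 12 were below 0, against 50.9% of all tested genes, with a median of -0.11 and 2 called lower (1.44% of all tested genes), mt-Nd4l being the exception at 0.35 (adjusted p = 0.59). Apart from mt-Nd6, which is read from the other strand, the messengers come from shared precursors. All 12 share libraries, and both comparisons use the same NT libraries. In HF minus RT 8 of 12 were above 0, against 49.6% of all tested genes, with a median of 0.01. Over all tested genes the median log2 fold change was -0.0025 in HF minus NT and close to 0 in the other comparisons. The catalytic mt-Co1 had 8145, 8211 and 8332 CPM as the lowest, median and highest HF library, 7671, 8116 and 8343 CPM on RT, and 9211, 8378, 8962, 8079 and 8053 CPM in NT libraries 1 to 5. NT 1, NT 2 and NT 3 were above every HF and RT library, and NT 4 and NT 5 were within their range. mt-Cytb had 3713, 3871 and 3954 CPM on HF, 3733, 3815 and 3997 CPM on RT, and 4456, 4195, 4323, 4038 and 3675 CPM in NT libraries 1 to 5. NT 1 to NT 4 lay above every HF and RT library and NT 5 below them all. Its log2 fold changes were -0.11 ± 0.039 on HF (SE, adjusted p = 0.17) and -0.11 ± 0.039 on RT (SE, adjusted p = 0.11).

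Of the 87 nuclear genes 80 were tested. In HF minus NT edgeR called 354 of all tested genes, which is 2.33%, and 0 of the 80 nuclear members, with 6 under 0.05 before adjustment (14.2% of all tested genes). None of the 80 was called by limma voom or by DESeq2 either. In RT minus NT edgeR called 603 genes, or 3.97%, and 2 nuclear members, both higher (2.53% of all tested genes were called higher), with 17 at an unadjusted p under 0.05 (17.1% of all tested genes). There DESeq2 called 3 nuclear members, each higher (Cox7c, Cyc1 and Ndufa12), and edgeR with a replicate term called 9, each higher. The nuclear median log2 fold change was -0.00 in HF minus NT and 0.05 in RT minus NT, with 38 and 57 of 80 genes above 0, against 49.0% and 49.1% of all tested genes. In complex III, 8 of 9 nuclear members were above 0 in HF minus NT and 9 of 9 in RT minus NT (medians 0.08 and 0.11). In complex IV, 8 of 14 and 11 of 14 were above 0 (medians 0.03 and 0.11), and in complex I, 9 of 36 and 21 of 36 (medians -0.02 and 0.02). Complexes II and V had medians of 0.03 and 0.01 in HF minus NT and of 0.05 and 0.05 in RT minus NT.

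**Figure D3:**
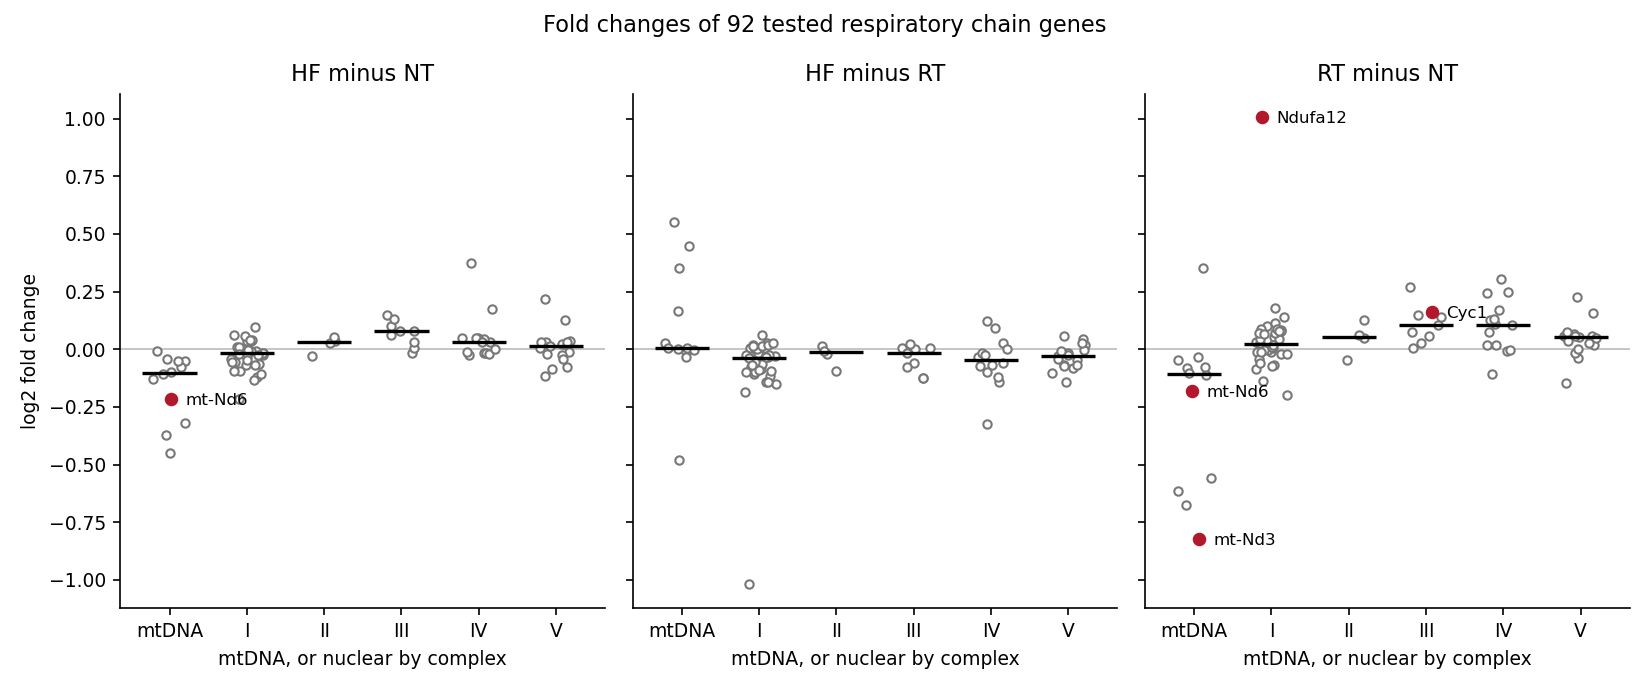
Log2 fold changes of the 92 tested members in HF minus NT, HF minus RT and RT minus NT, by mitochondrial DNA (12 genes) or nuclear complex I to V (80 genes). Filled points passed an adjusted p of 0.05, open points did not, and bars are medians; mt-Nd6 is the only filled point of HF minus NT, HF minus RT has none, and RT minus NT has mt-Nd6, mt-Nd3, Ndufa12 and Cyc1.

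Complex I holds the largest fold change of any member, Ndufa12 on RT, an accessory subunit of the matrix arm. It had 34.2, 37.3, 48.9, 40.9, 16.3 and 23.3 CPM in RT libraries 1 to 6, against 15.8, 17.5, 15.8, 15.8 and 17.8 CPM in NT libraries 1 to 5, and 14.7, 16.1 and 18.5 CPM as the lowest, median and highest HF library. RT 1 to RT 4 were far above every NT and HF library, RT 6 was above them by less, and RT 5 lay among them. The log2 fold change in RT minus NT was 1.01 ± 0.22 (SE, edgeR adjusted p = 0.019). The call was lost with only the RT and NT libraries in the fit (adjusted p = 0.088), with limma voom (adjusted p = 0.093) and without NT 3 (adjusted p = 0.056). HF minus RT was -1.02 ± 0.21 (SE, adjusted p = 0.073), HF minus NT was -0.01 ± 0.23 (SE, adjusted p = 0.99).

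Ndufa12 has a processed pseudogene on chromosome 5, Gm15920, that matches 402 bases of its coding sequence and stop codon with 2 differences, A99G and T378C (positions from 1 at the first base of Gm15920). Only reads that cross one of these positions, or leave the matched stretch, can be assigned by sequence, and both places are shown with the differing base in capitals:
Ndufa12, positions 79 to 119: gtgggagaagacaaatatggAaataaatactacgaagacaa
Gm15920, positions 79 to 119: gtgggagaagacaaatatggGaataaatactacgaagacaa
Ndufa12, positions 358 to 398: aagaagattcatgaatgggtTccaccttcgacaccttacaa
Gm15920, positions 358 to 398: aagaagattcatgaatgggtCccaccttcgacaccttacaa
Gm15920 had 13.05, 15.5, 9.4, 12.995, 23.8 and 16.5 CPM in RT libraries 1 to 6, against 17.4, 26.8, 21.04, 20.4 and 22.5 CPM in NT libraries 1 to 5, and 16.1 to 24.2 CPM on HF. It was lowest in RT 3, where Ndufa12 was highest, and highest among RT libraries in RT 5, where Ndufa12 was lowest. Ndufa12 held 67.0 ± 15.3% of the counts of both genes on RT, 46.1 ± 5.25% on HF and 43.5 ± 2.91% on NT (SD, n = 6, 6 and 5). With both genes' counts added before the fit, RT minus NT was 0.35 ± 0.100 (SE, adjusted p = 0.064), so the size fell and the call ended.

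The core of complex I showed no called change. Ndufs1, the largest iron-sulfur subunit, had 76.1 ± 2.62 CPM on HF, 75.2 ± 2.09 CPM on RT and 76.3 ± 4.39 CPM on NT, and Ndufv1, the NADH-binding flavoprotein, had 102 ± 3.62, 101 ± 4.09 and 105 ± 10.9 CPM (SD, n = 6, 6 and 5). Ndufb2, an accessory membrane-arm subunit, had the smallest p of the nuclear complex I members in HF minus NT, with 14.0 ± 0.951 CPM on HF and 16.2 ± 1.07 CPM on NT (log2 fold change -0.21 ± 0.081, SE, adjusted p = 0.18). Per length, complex I members ranged from 2.61 CPM per kb for Ndufb2 to 80.8 CPM per kb for Ndufb11, both over the merged exons of all annotated transcripts.

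Complex II, whose 4 subunits are all nuclear, had no called member. Sdha, the flavoprotein that oxidises succinate, had 218 ± 3.56 CPM on HF, 215 ± 4.98 CPM on RT and 222 ± 6.59 CPM on NT. Sdhb, its iron-sulfur partner, had 31.0 ± 2.63, 33.0 ± 1.68 and 30.3 ± 0.403 CPM (SD, n = 6, 6 and 5). All RT libraries of Sdhb lay above all NT libraries, as did those of Ndufa6 in complex I and of no other nuclear member. This was 2 of 80, where 2.18% of all tested genes did so (in HF minus NT 0 of 80, where 1.25% did). The margins were very narrow. For Sdhb the lowest RT library had 30.738 CPM and the highest NT library 30.737 CPM, and for Ndufa6 48.499 and 48.398 CPM. Neither gene passed (log2 fold changes 0.13 and 0.14, adjusted p = 0.22 and 0.12).

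Cyc1, the cytochrome c1 heme protein of complex III, was higher on RT. It had 79.2, 83.3 and 89.2 CPM as the lowest, median and highest RT library, against 68.0, 79.8, 74.7, 74.3 and 79.4 CPM in NT libraries 1 to 5, and 75.2, 82.3 and 83.2 CPM on HF. RT and NT overlapped by the narrow margin of RT 1 under NT 2 and NT 5. The log2 fold change in RT minus NT was 0.16 ± 0.042 (SE, edgeR adjusted p = 0.022). Leaving out NT 1, NT 3, NT 4, RT 3 or RT 4 ended the call, with adjusted p = 0.081, 0.056, 0.055, 0.062 and 0.071. HF minus NT was 0.10 ± 0.043 (SE, adjusted p = 0.24). No other nuclear member of complex III passed in any comparison. Uqcrfs1, the Rieske iron-sulfur protein, had 53.3 ± 2.50 CPM on HF, 53.1 ± 1.85 CPM on RT and 50.4 ± 3.04 CPM on NT. Per length, Uqcr11 stood highest at 93.6 CPM per kb and Uqcrb lowest at 18.5. Uqcrc1, a core protein, had 99.1 ± 2.25, 98.9 ± 3.12 and 98.7 ± 7.61 CPM (SD, n = 6, 6 and 5).

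Complex IV has subunits with tissue-specific forms, and the ubiquitous forms carried most of the counts. Cox4i1, the ubiquitous form of subunit 4, stood at 112 CPM per kb, against 0.28 for Cox4i2, the form known from lung. Cox6a1 stood at 213 CPM per kb and its heart and muscle form Cox6a2 at 2.81, Cox7a2 at 49.9 and its muscle form Cox7a1 at 1.59, Cox8a at 275 and its muscle form Cox8b at 0.18 CPM per kb. Cox6b1 stood at 98.4 CPM per kb and the testis form Cox6b2 at 0.0951. Ndufa4 stood at 45.8 CPM per kb and its hypoxia-induced paralog Ndufa4l2 at 0.30. Cox7b2 and Cox8c had no count in any library, which allows up to 0.00994 CPM over all 17 libraries together. Of 6 markers of cardiac and striated muscle, Myh6 and Myl2 had no count and the sum was at most 2.51 CPM in any library. Cox7c, a small membrane subunit, had the smallest p among nuclear complex IV members in HF minus NT and in RT minus NT, with 40.8 ± 2.64 CPM on HF, 42.8 ± 4.66 CPM on RT and 36.2 ± 5.22 CPM on NT (SD, n = 6, 6 and 5). Its log2 fold changes were 0.18 ± 0.083 on HF (SE, adjusted p = 0.34) and 0.24 ± 0.082 on RT (SE, adjusted p = 0.11). DESeq2 called it higher on RT than on NT (adjusted p = 0.044). So did edgeR with no filter beyond 1 count (adjusted p = 0.00077), with a replicate term (0.0013) and with libraries 1 to 5 (0.047). Of 17 fits with 1 library left out, only 1 called it, that without NT 2. Cox7a2l, which helps complexes III and IV to join, had 168 ± 7.47 CPM on HF, 158 ± 7.53 CPM on RT and 170 ± 13.4 CPM on NT.

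By CPM, without regard to length, ATP synthase had the most abundant nuclear members, and it had no called one. Atp5b, the catalytic beta subunit, had 856 ± 26.8 CPM on HF, 874 ± 18.7 CPM on RT and 842 ± 47.6 CPM on NT, and Atp5a1, the alpha subunit, had 498 ± 10.3, 484 ± 15.0 and 496 ± 11.99 CPM (SD, n = 6, 6 and 5). The proton-carrying c subunit has 3 genes that encode the same mature protein, and per length Atp5g2 and Atp5g3 stood at 57.6 and 53.5 CPM per kb and Atp5g1 at 11.3. Atp5g2 had 100 ± 4.77 CPM on HF and 91.8 ± 6.44 CPM on NT (log2 fold change 0.13 ± 0.045, SE, adjusted p = 0.13), the smallest p of nuclear complex V in that comparison. In RT minus NT that place went to Atp5s, which was put in complex V by its symbol alone. It had 18.9 ± 1.06 CPM on RT and 20.9 ± 1.19 CPM on NT (SD, n = 6 and 5; log2 fold change -0.15 ± 0.064, SE, adjusted p = 0.23). Per length, Atp5b stood highest of nuclear complex V at 203 CPM per kb and Atp5l lowest at 6.91. Cox8a (275 CPM per kb) and Cox6a1 (213 CPM per kb) of complex IV stood above Atp5b on that scale.

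Between the structured surfaces, HF minus RT, edgeR called 32 of all tested genes (0.211%) and 0 of the 92 tested members, of which 13 were under 0.05 before adjustment, as were 1216 of the 15196 tested genes. DESeq2 called 1 member, Ndufa12, lower on HF, and limma voom called 0. Of all tested genes 0.132% were called higher and 0.0790% lower on HF than on RT. No member had every HF library below or above every RT library, where 0.520% and 0.447% of all tested genes did so. The nuclear median was -0.03 with 55 of 80 genes below 0, against 50.4% of all tested genes. The members with the smallest p in each complex besides Ndufa12 were Sdhb, Uqcr10 (a small subunit of complex III), Cox5b (a nuclear subunit of complex IV) and Atp5f1 (the b subunit of the ATP synthase stalk). Their log2 fold changes were -0.09, -0.12, -0.14 and -0.08 (adjusted p = 0.69, 0.74, 0.45 and 0.55). mt-Nd3 differed by 0.45 ± 0.14 (SE, adjusted p = 0.25), higher on HF by mean with overlapping libraries. By median, no complex departed from 0 by more than 0.05 on the log2 scale, and the standard errors of single members, whose median was 0.051, set what could be seen.

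Summed over genes, mitochondrial transcripts made up 2.16 ± 0.0376% of all counts on HF, 2.14 ± 0.0587% on RT and 2.28 ± 0.154% on NT, and nuclear ones 0.608 ± 0.0142%, 0.619 ± 0.0132% and 0.606 ± 0.0382% (SD, n = 6, 6 and 5). The log2 ratio of the mitochondrial to the nuclear sum was 1.79, 1.82 and 1.90 as the lowest, median and highest HF library, 1.71, 1.80 and 1.85 on RT, and 2.12, 1.89, 2.02, 1.89 and 1.64 in NT libraries 1 to 5. NT held both the highest ratio and the lowest, so the groups overlapped although the NT mean was highest. The mean differences were -0.08 in HF minus NT, 0.04 in HF minus RT and -0.12 in RT minus NT. Without NT 5 the differences from NT were -0.15 on HF and -0.19 on RT, and without NT 1 they were -0.03 and -0.07.

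**Figure D4:**
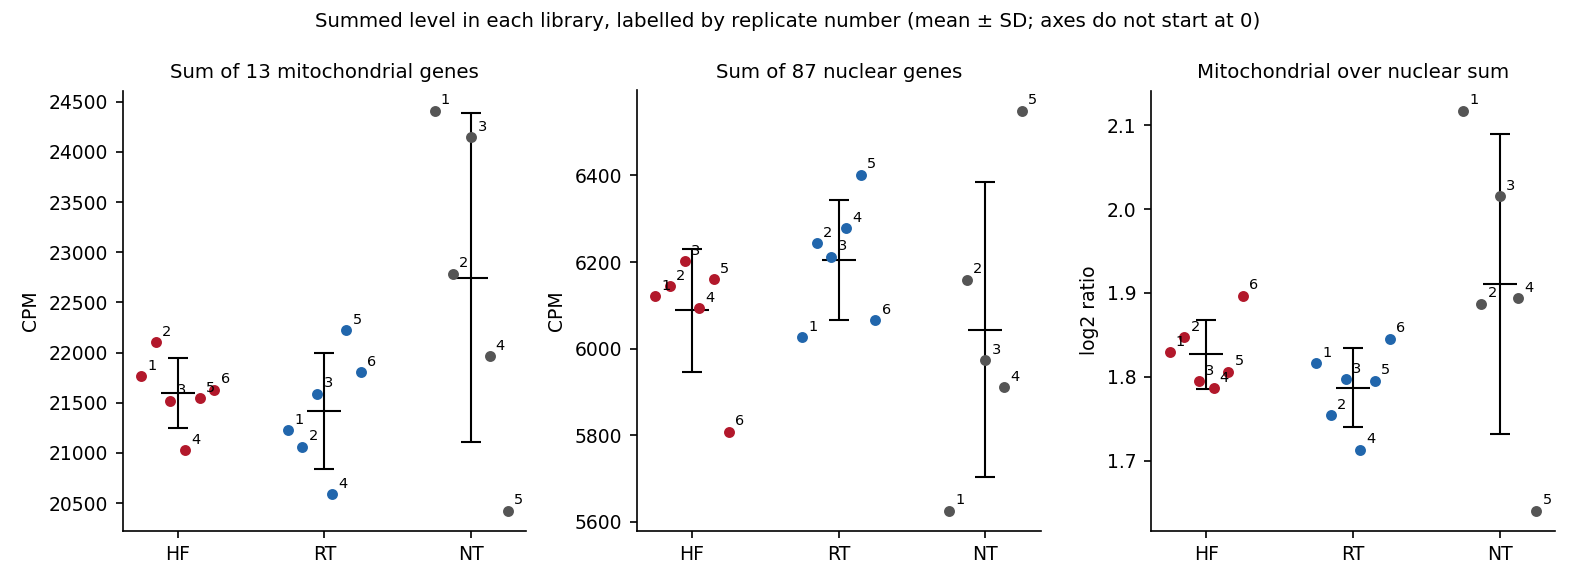
Summed level (CPM) of the 13 mitochondrial and 87 nuclear members and the log2 of their ratio in each library of HF, RT and NT, labelled by replicate number, with mean ± SD. The axes do not start at 0. NT 1 has the highest ratio of all libraries (2.12) and NT 5 the lowest (1.64).

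By the median over all tested members, the flat surface was the group whose libraries differed most, though not in every class of genes. The median coefficient of variation of the tested members over libraries was 5.26% on HF, 5.13% on RT and 9.07% on NT, while over all tested genes it was 7.48%, 7.22% and 9.19%. For the 7 high mitochondrial genes it was 2.59%, 2.91% and 7.27%, and for nuclear complex I 5.57%, 5.60% and 10.1%. For the 5 tested mitochondrial genes with shared sequence it was highest on HF (31.6%, 14.3% and 21.8%). For complex II it was highest on RT (2.6%, 3.9% and 2.7%). NT 1 was the lowest NT library for 54 of the 80 nuclear members (22.3% of all tested genes) and NT 5 the highest for 53 of 80 (26.5% of all tested genes). Over all 17 libraries NT 1 was lowest for 38 of the 80 and NT 5 highest for 31, against 1483 and 1907 of all 15196 tested genes. The mitochondrial genes ran the other way, NT 1 and NT 3 each being the highest NT library for 5 of 12 (3303 and 2430 of all 15196 tested genes) and NT 5 the lowest for 7 of 12 (26.9% of all tested genes). The median deviation of nuclear members from their 17-library mean was -0.15 in NT 1 and 0.09 in NT 5 on the log2 scale, and that of mitochondrial members was 0.17 and -0.07. HF 6 was the lowest HF library for 46 of 80 nuclear members (21.8% of all tested genes), with a median deviation of -0.08. What sets these libraries apart was not tested, and their total counts (16141422 in NT 1, 16962456 in NT 5 and 17421084 in HF 6) lay within the range of the others.

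**Figure D5:**
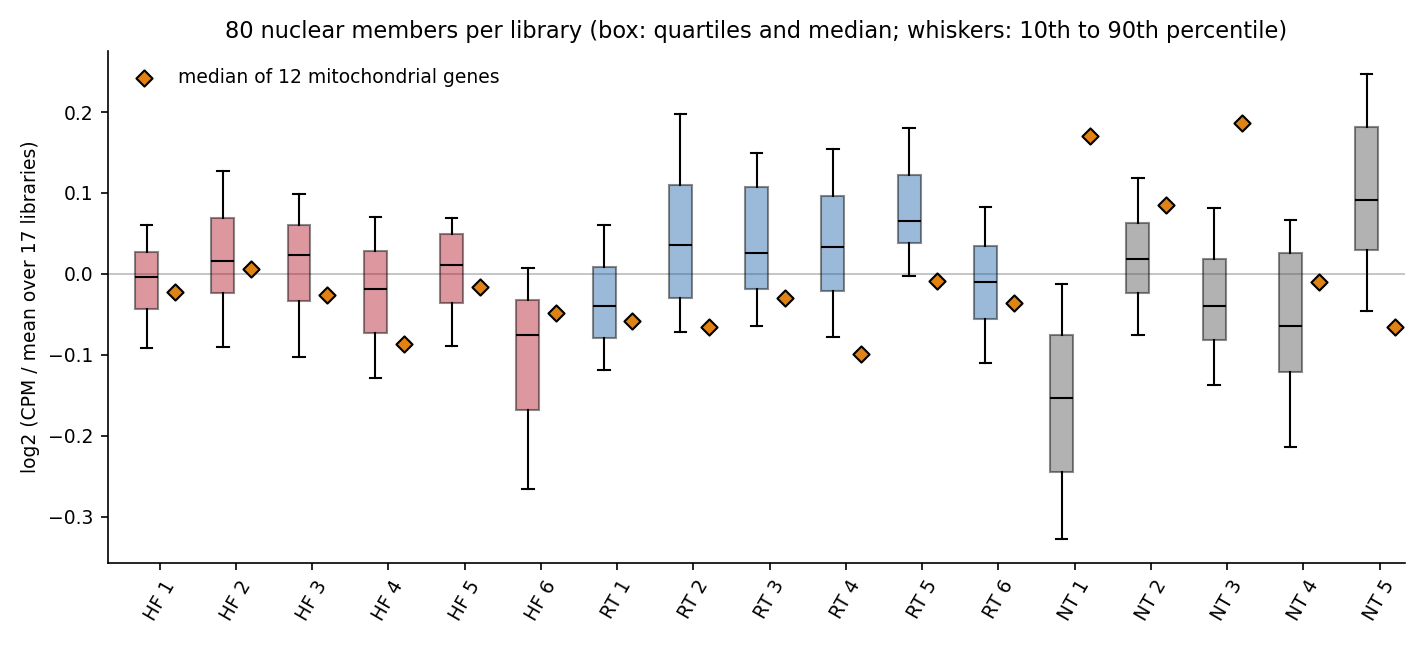
Log2 of each nuclear member's CPM over its mean of 17 libraries, for 80 genes in each library (boxes: quartiles and median; whiskers: 10th to 90th percentile; HF, RT and NT from left to right), with diamonds for the median of 12 mitochondrial genes. NT 1 has its box lowest (median -0.15) and its diamond at 0.17, and NT 5 its box highest (median 0.09) and its diamond at -0.07.

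Promoters of the nuclear members were searched on both strands for 3 short motifs of regulators of these genes. The motifs were those of NRF1 (the 10 capital letters of the lines below), YY1 (AAGATGGCG) and ETS factors such as GABPA (CCGGAAGT). RefSeq windows (GRCm38.p6, 250 bases before to 50 after the gene start) were at hand for 67 of the 86 nuclear symbols. The NRF1 letters were in 5 of 67 (7.46%, against 1.07% of all 27025 genes with a window), those of YY1 in 7 (10.4%, against 1.64%) and those of ETS factors in 5 (7.46%, against 4.31%). The genes with a window include genes not expressed here. Any of the 3 motifs was in 17 of the 67 members, and no member held more than 1. The 5 windows with the NRF1 letters, which read the same on both strands and are capitalised, are shown in the direction of each gene:
Atp5g2, chr15:102671055-102671114, minus strand: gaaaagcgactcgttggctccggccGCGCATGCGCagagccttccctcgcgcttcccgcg
Atp5k, chr5:108434415-108434474, minus strand: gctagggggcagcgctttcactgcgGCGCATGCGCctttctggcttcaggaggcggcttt
Cox6a1, chr5:115349086-115349145, minus strand: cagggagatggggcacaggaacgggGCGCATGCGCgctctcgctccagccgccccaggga
Ndufa11, chr17:56717677-56717736, plus strand: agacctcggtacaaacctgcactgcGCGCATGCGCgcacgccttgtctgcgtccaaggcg
Uqcrc1, chr9:108936653-108936697, plus strand: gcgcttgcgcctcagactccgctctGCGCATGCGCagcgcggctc
These are matches of letters and no factor's binding was measured. Their part in the differences between libraries was not tested. None of these 5 genes passed the threshold in any comparison.

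Genes that build and supply the chain were read from 8 lists. None of the 53 tested assembly factors, 22 genes of mitochondrial DNA upkeep and transcription, 21 of mitochondrial RNA processing, 18 of pyruvate dehydrogenase and the citric acid cycle, 7 nucleotide and phosphate carriers or 77 mitochondrial ribosomal proteins was called by edgeR in any comparison. At an unadjusted p under 0.05 these 6 lists held 7, 7 and 11 genes in HF minus NT, HF minus RT and RT minus NT, where all 15196 tested genes held 2165, 1216 and 2600. Among 13 regulators of mitochondrial genes 1 was called, Esrra (the nuclear receptor ERR alpha), higher in RT minus NT. There 2.53% of all tested genes were called higher. Esrra had 60.5 ± 2.38 CPM on RT and 54.0 ± 2.66 CPM on NT (SD, n = 6 and 5; log2 fold change 0.16 ± 0.046, SE, adjusted p = 0.037). Ppargc1a, the coactivator PGC-1 alpha, had 20.1 ± 2.25 CPM on RT and 16.7 ± 2.87 CPM on NT (log2 fold change 0.27 ± 0.093, SE, adjusted p = 0.11). Among 21 genes of electron carriers and ubiquinone 1 was called, Coq8a, a kinase-like protein of ubiquinone synthesis, also higher in RT minus NT (against the same 2.53%). It had 13.8 ± 1.02 CPM on RT and 11.3 ± 0.616 CPM on NT (SD, n = 6 and 5; log2 fold change 0.28 ± 0.077, SE, adjusted p = 0.030). All RT libraries of Coq8a lay above all NT libraries, as in 2.18% of all tested genes, and those of Esrra overlapped.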

How the data were processed

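Polyadenylated RNA of 17 libraries was sequenced without strand information, per the labels' protocols, as paired reads of 150 bases. The authors deposited a table of raw read counts per gene; the submitters' processing notes name HISAT2 2.0.5, featureCounts 1.5.0-p3 and GRCm39. The annotation release and the handling of reads with several matches are not given in the sources used here, and either could move counts between a gene and its copy.

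Counts were fitted with edgeR 4.0.16 (TMM scaling, quasi-likelihood test, all 3 groups, no covariate) over 15196 genes kept by its expression filter, with Benjamini-Hochberg adjustment and a threshold of 0.05. Genes without a symbol in the names table were kept in library sizes and tests. The test was also tried on simulated counts, with means, library sizes and spread taken from the fit of the real counts. DESeq2 1.42.0, limma 3.58.1 (voom), other scalings and filters, a replicate term and left-out libraries were alternatives. Total counts of 14913649 to 24072966 a library set the precision, and the common biological coefficient of variation was 0.0603. A limit from a count of 0 rests on 3 counts and covers counting error only.

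Sequences came from GENCODE M21 transcripts and RefSeq promoter windows, both on GRCm38, read with Biopython 1.88. CPM per kb used merged exon lengths of that annotation, which may differ from the one the authors counted on. Named were all mitochondrial members, called nuclear members, the smallest p per complex and comparison, tissue isoforms, core subunits and extremes per length, and, of other lists, called genes and up to 2 with the smallest p. The members, lists and rule were chosen with earlier results of these data known.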

Additional observations from a re-analysis of the deposited data

Results flagged for a closer look

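In 9 of 147 groups tested, 1 library stood apart from the rest of its group by Dixon's criterion, and chance alone gives about 1 in 20. For mt-Co3, HF 4 had 81.9 CPM where the other HF libraries had 40.6 to 47.4, and RT 3 had 55.6 CPM where the other RT libraries had 32.6 to 40.02. For mt-Co2, NT 4 had 40.9 CPM where the other NT libraries had 71.2 to 76.0. For mt-Nd4l, HF 2 had 10.2 CPM where the other HF libraries had 4.66 to 5.42. For mt-Nd6, NT 3 had 725 CPM where the other NT libraries had 661 to 676, and both calls of mt-Nd6 held without NT 3.

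Among nuclear members, Cox7a2l had 171.9 CPM in RT 5 and 149.1 to 157.0 in the other RT libraries. Ndufv1 had 124 CPM in NT 5 and 97.1 to 103 in the other NT libraries. Uqcrb had 10.6 CPM in HF 6 and 16.1 to 18.3 in the other HF libraries. The summed nuclear members were 5809 CPM in HF 6 and 6093 to 6203 in the other HF libraries.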

How the results depend on the processing

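Over all named members and alternatives, 3406 of 3453 values kept their direction and their side of the threshold, 9 lost a call, 38 gained one and 0 changed the direction of a call. Other settings moved the counts of calls. In HF minus NT the count over all genes was 354, against 564 with DESeq2, 597 with no filter beyond 1 count and 200 with only the HF and NT libraries in the fit, and members called went to 3 with no filter (mt-Cytb, mt-Nd3 and mt-Nd6). In HF minus RT the count was 32, against 84 with DESeq2, 148 with no filter, 113 with only those groups and 15 with libraries 1 to 5, and members called were 1 with DESeq2 (Ndufa12) and 1 with no filter (mt-Nd3). In RT minus NT 4 members were called, against 7 with DESeq2 and 9 with no filter. The 7 were Cox7c, Cyc1, Ndufa12, mt-Atp6, mt-Co3, mt-Nd3 and mt-Nd6. The 9 were Cox7b, Cox7c, Cyc1, Ndufa12, Uqcrb, mt-Cytb, mt-Nd3, mt-Nd4 and mt-Nd6. The causes were not tested.

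Leaving out 1 library gave 202 (without NT 3) to 604 (without NT 5) genes in HF minus NT, 14 (without RT 1 or RT 3) to 89 (without HF 3) in HF minus RT, and 365 (without NT 3) to 806 (without NT 5) in RT minus NT. Members called ranged from 1 to 5, 0 to 1 and 2 to 10 in the same comparisons, the highest counts without NT 5 for those against NT and without RT 5 (Ndufa12) for HF minus RT. Median log2 fold changes of mitochondrial members ranged from -0.15 to -0.06, from -0.0046 to 0.02 and from -0.15 to -0.07, and those of nuclear members from -0.03 to 0.04, from -0.05 to -0.02 and from 0.02 to 0.08. The difference of the log2 ratio of sums ranged from -0.15 to -0.03, from 0.03 to 0.05 and from -0.19 to -0.07.

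Libraries of different groups share replicate numbers, and the labels do not say what a number marks. Deviations of same-numbered libraries correlated by -0.011 to 0.193, so the criterion for pairing (every correlation over 0.1) was not met, and not every library correlated best with its own number. In RT minus NT numbers 1 and 5 reached 0.193 and 0.137, and the ribosomal RNA mt-Rnr2 was low in number 1 and high in number 5 in each group, and whether a number marks a shared batch was not tested. With a replicate block the counts over all genes were 637, 125 and 995 in HF minus NT, HF minus RT and RT minus NT, and members called were 4 (Atp5g2, Cox7c, mt-Nd3 and mt-Nd6), 1 (mt-Nd3) and 12 (9 higher, 3 lower). The 9 were Atp5k, Cox4i1, Cox7b, Cox7c, Cyc1, Ndufa12, Ndufa6, Uqcr11 and Uqcrq, and the 3 were mt-Atp6, mt-Nd3 and mt-Nd6.

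Depth limits the rarest members, 8 of which were not tested, and with 5 or 6 libraries a group the median standard error of a member was 0.05 on the log2 scale.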

Other observations

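The mitochondrial ribosomal RNA mt-Rnr2, which is no subunit gene, was low in the library numbered 1 and high in the one numbered 5 in each group. It had 134, 209, 260, 292, 329 and 330 CPM in HF libraries 1 to 6, 105.99, 175, 232, 262, 322 and 333 CPM in RT libraries 1 to 6, and 105, 175, 243, 278 and 301 CPM in NT libraries 1 to 5. mt-Rnr1, the other ribosomal RNA, had 73.5 ± 11.2 CPM on HF, 68.4 ± 6.51 CPM on RT and 69.9 ± 10.6 CPM on NT (SD, n = 6, 6 and 5). The libraries were selected for polyadenylated RNA, and what the replicate numbers stand for is not stated in the labels.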
